A study of Homo sapiens with 10 samples.

Results

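The genes described here copy DNA: 51 genes of replication licensing, the replication fork and deoxynucleotide supply, out of 19775 genes with a probe set that the array annotation maps to 1 symbol only. They were chosen by name, with earlier results of these data known, and they fall into 10 role groups of 3 to 9 genes. Each was read from whichever of its probe sets was brightest on average over the 10 arrays. All 51 were measured above the detection threshold used here, a highest value over 6.18 log2, the median of all values. The 10 Affymetrix arrays, of 1 colour and 1 per condition, asked how soluble factors from macrophages and vitamin D3 alter colon cancer cells. HCT116, a colorectal carcinoma line, and Hke3 were each grown in 4 ways: alone, with vitamin D3 for 24 h, in coculture with THP1 macrophages, and in coculture with vitamin D3. Hke3 is known as a line derived from HCT116, so HCT116 against Hke3 compares a parent with 1 derived clone. THP1, a monocytic leukaemia line that the labels call macrophages, was grown alone and with vitamin D3 for 24 h. Cocultured cells shared soluble factors without touching. The colon lines were kept in MEM and THP1 in RPMI, both with serum, and the medium of the cocultures and the vitamin D3 dose were not given in the sources used here. All values are log2 intensities, so a difference of 1 is a 2-fold change, a value after ± is the fit's standard error, and levels of a line are listed in the order alone, with vitamin D3, in coculture, and in coculture with vitamin D3.

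Before a cell can copy its DNA, the origin recognition complex (ORC) with CDC6 and CDT1 loads the MCM2-7 helicase onto origins, a step called licensing that geminin (GMNN) blocks once S phase has begun. CDC45 and the GINS complex then turn MCM2-7 into the active helicase, primase and DNA polymerase alpha lay down primers, and polymerases delta and epsilon extend them on the PCNA clamp that replication factor C (RFC) loads. Transcription of many of these genes is driven by E2F factors as cells pass from G1 into S phase, and cells that leave the cycle hold them low.

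Windows of 300 bases around gene starts were searched for 3 motifs because E2F factors bind upstream of many of these genes. RefSeq windows (GRCh38.p14, 250 bases before to 50 after each listed start) were found for 45 members, and MCM4, MCM5, GINS4, POLD3, RPA2 and RPA3 were not matched. An E2F motif (TTTCCCGC, TTTCGCGC, TTTGCCGC or TTTGGCGC, either strand, overlapping matches allowed) occurred in 24 of the 45 members (53.3%), against 6.38% of the 10645 genes tested on the colon arrays that have a window and 3.99% of all 27305 genes in the promoter table. Among members that passed the coculture test described below, 19 of 30 (63.3%) held it, and among those that did not, 5 of 15 (33.3%). The difference between these groups was not tested, and which members pass depends on the arrays kept. CCAAT, on either strand, occurred in 62.2% of the members against 42.7% of the tested genes, and the CHR (TTTGAA or TTCGAA, either strand) in 4.44% against 15.3%. Upstream stretches of 6 members that passed the coculture test are shown because they carry the E2F motif before the start site. Capitals mark the motif, and each capital run of MCM6 holds a pair of overlapping matches.
HELLS: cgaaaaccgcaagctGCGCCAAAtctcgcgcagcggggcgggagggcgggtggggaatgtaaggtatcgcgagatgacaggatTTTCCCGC
GINS2: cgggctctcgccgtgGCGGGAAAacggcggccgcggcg
UHRF1: aaatgccgagttttcGCGGGAAAaaaatc
PCNA: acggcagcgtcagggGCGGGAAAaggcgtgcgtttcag
CDT1: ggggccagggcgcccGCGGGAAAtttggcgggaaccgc
MCM6: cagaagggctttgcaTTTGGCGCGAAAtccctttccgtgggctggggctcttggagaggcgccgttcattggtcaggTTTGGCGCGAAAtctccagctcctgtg
The HELLS stretch spans chr10:94545697-94545787 (plus strand), that of GINS2 chr16:85688963-85689000 (minus strand), that of UHRF1 chr19:4909472-4909500 (plus strand), that of PCNA chr20:5126659-5126696 (minus strand), that of CDT1 chr16:88803739-88803776 (plus strand) and that of MCM6 chr2:135876507-135876610 (minus strand). GINS2, UHRF1, PCNA and CDT1 share the same capital letters on the strand shown. All of these bases lie upstream of the annotated start. A match is a string of letters and not a measured binding site.

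Both colon lines carried their tissue's markers: 7 of 8 epithelial genes were above the threshold on every colon array (list medians 11.75 to 12.37), and the eighth, CDH17, was below it. Of 12 macrophage markers, 3 or 4 were above the threshold on each colon array, where the list's medians were 5.22 to 5.36, against 11.48 and 11.76 on the THP1 arrays. The 3' minus 5' difference of the ACTB control probe sets, which rises as RNA degrades, was 0.16 to 0.30 on the HCT116 arrays, -0.01 and 0.10 on the THP1 arrays, and 0.94, 0.72, 0.62 and 0.56 in Hke3. The GAPDH difference lay between -0.11 and 0.06 on all 10 arrays. CYP24A1, which vitamin D3 induces, was checked against the vitamin D3 labels. Its values were 9.99, 11.44, 10.68 and 9.70 in HCT116, 10.89, 12.35, 12.25 and 10.89 in Hke3, and 4.51 and 10.40 in THP1. It was thus higher on the arrays labelled vitamin D3 in all 3 monocultures and lower on them in both cocultures, so the vitamin D3 labels of the cocultures are given as labels only. For the Hke3 monoculture array titled as treated, 1 other label field calls the cells untreated.

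Coculture with THP1 came with lower replication gene RNA in both colon lines. The limma model over the 8 colon arrays, with terms for cell line, coculture and vitamin D3, called 34 of the 51 members lower in coculture and 0 higher (adjusted p under 0.05), where 7.82% of the 13243 genes tested passed, 4.05% lower and 3.76% higher. All 51 fitted differences were below 0, against 54.7% of all genes tested, with a median of -0.30 against -0.016. They ran from -0.62 for HELLS to -0.02 for ORC4, so the largest fall was 1.53-fold. Fewer cells in S phase and less replication RNA per cell cannot be told apart on these arrays. The mean of the members, each centred on its own mean over the colon arrays, was 0.26, 0.23, -0.10 and -0.15 in HCT116 and 0.08, 0.04, -0.17 and -0.19 in Hke3. No member had its highest colon value in coculture, and 26 of 51 had it in HCT116 alone.

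**Figure D1:**
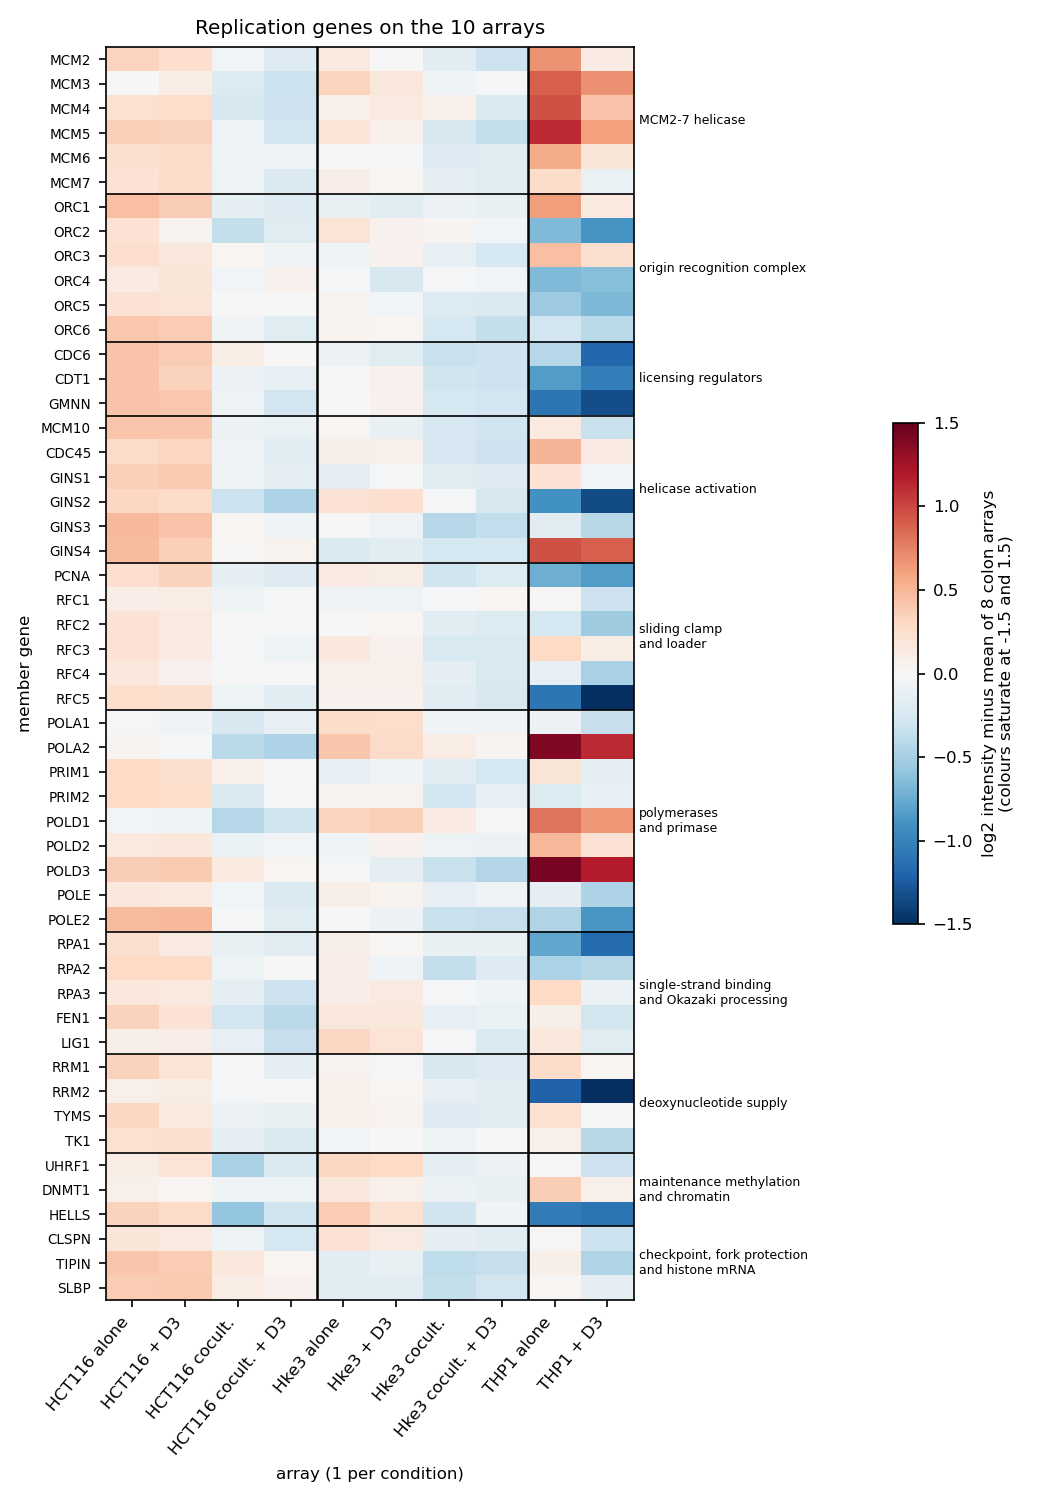
Log2 intensity of the 51 members (rows, by role group) on the 10 arrays (columns, 1 per condition), minus each member's mean over the 8 colon arrays, with colours saturating at -1.5 and 1.5. Most rows turn from red to blue between the columns without and with coculture in HCT116, less steeply in Hke3, and THP1 with vitamin D3 is lower than THP1 alone in 48 of 51 rows.

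No condition was repeated, so the error is what the additive terms leave over on the 8 arrays (residual df 4). By their labels, 4 pairs of these arrays differ in coculture only, and nothing in the labels says which cultures were grown separately. The medium of the cocultures was not given, so medium and coculture cannot be told apart. The coculture difference was below 0 in all 4 pairs for 47 members (17.7% of all genes tested). In 28 members every coculture array lay below every array without coculture, as 5.89% of all genes did. The pair medians were -0.35 without and -0.38 with vitamin D3 in HCT116, each with 51 of 51 members below 0, and -0.25 and -0.23 in Hke3, with 47 and 48 below 0. Of all genes tested, 58.6%, 50.4%, 54.9% and 49.3% were below 0 in these pairs, in the same order. The call count rests on all 8 arrays, while the direction does not: without the HCT116 array with vitamin D3, 1 member passed (MCM5, with 39 genes in all), and without HCT116 alone, its coculture or its coculture with vitamin D3, 14, 13 and 9 passed. Without Hke3 alone, with vitamin D3 or in coculture, 15, 20 and 18 passed, and with both untreated monocultures left out, 0 of 51 and 0 genes in all, although 38 members had an unadjusted p under 0.05 and the members' median was -0.29. A test against a minimum of 1.2-fold called 0 members, and 15 passed when the 4 pairs were fitted as a fixed block in place of the additive terms.

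**Figure D2:**
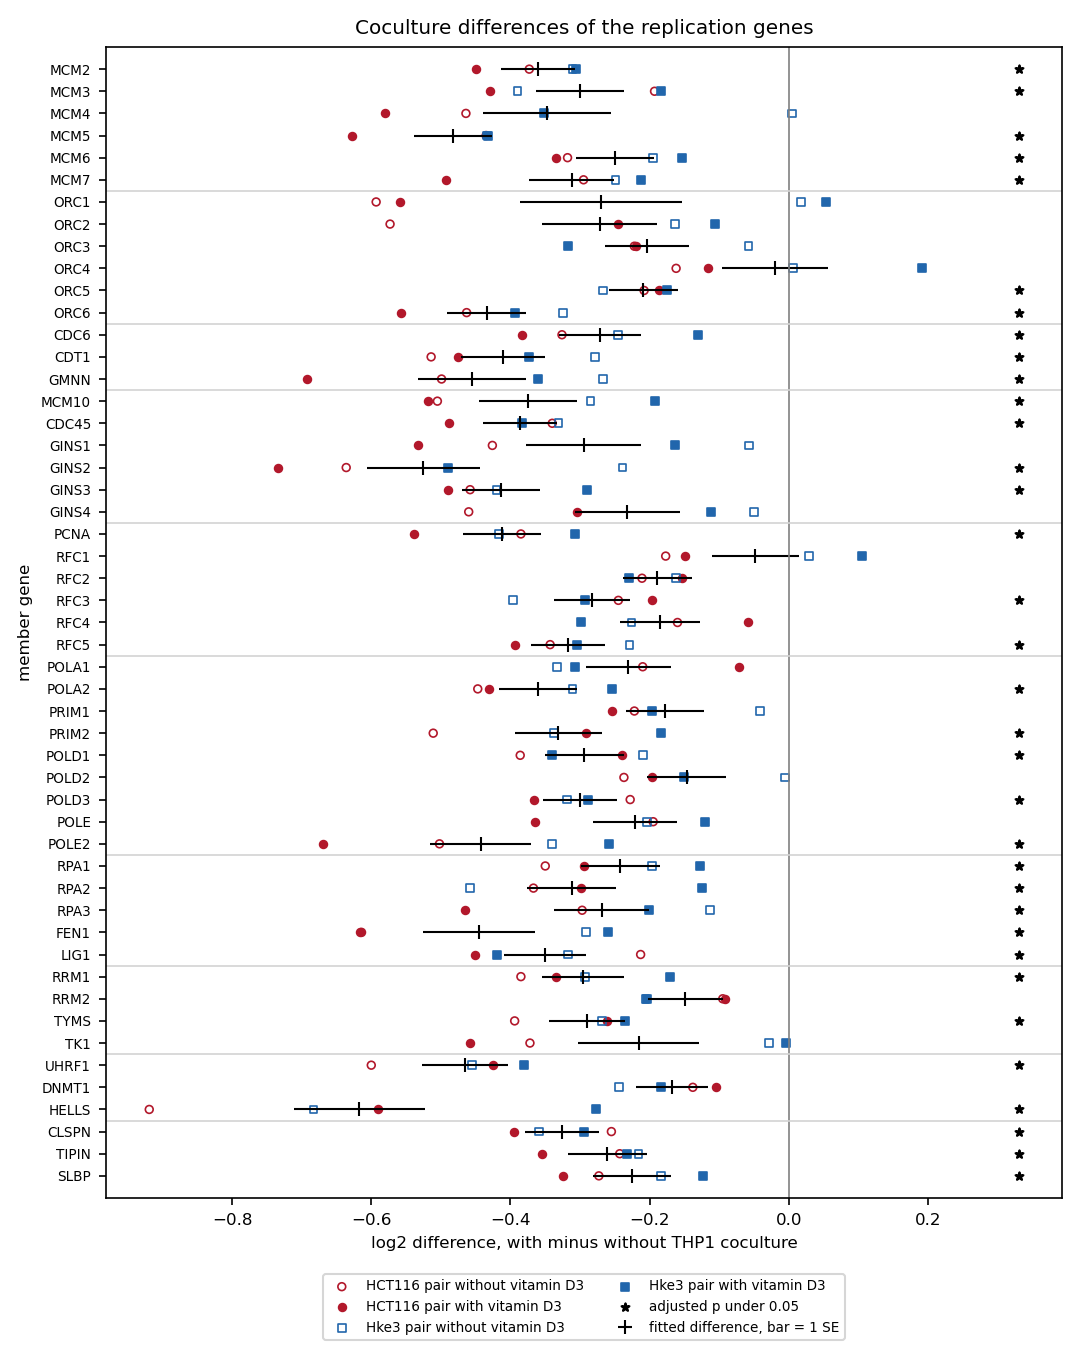
Coculture differences (log2, horizontal) of the 51 members (vertical, grouped by role) in each of the 4 array pairs, with the fitted difference and its standard error, and a star where the adjusted p is under 0.05. Of the points, 47 members have all 4 left of 0, the HCT116 points mostly lie further left than the Hke3 points, and ORC4 and RFC1 sit nearest 0.

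Of the MCM2-7 subunits, which form the helicase ring, 5 of 6 fell in coculture. Here and in the groups and lists below, a gene is counted as fallen or risen only if it passed the coculture test. MCM5 fell most, by 0.48 ± 0.06 or 1.4-fold (adjusted p = 0.0135). Its levels were 11.40, 11.39, 10.97 and 10.76 in HCT116 and 11.24, 11.12, 10.81 and 10.68 in Hke3. All 4 coculture arrays lay below the other 4, and MCM5 was the only member called with each array left out in turn. MCM6, whose promoter stretch above carries 4 matches, fell least of the 5, by 0.25 ± 0.06 (adjusted p = 0.0354). It read 12.61, 12.66, 12.29 and 12.32 in HCT116 and 12.37, 12.35, 12.17 and 12.20 in Hke3. Its coculture arrays lay below the others, by little where cocultured HCT116 (12.29 and 12.32) met Hke3 without coculture (12.37 and 12.35). MCM4 did not pass (-0.35 ± 0.09, adjusted p = 0.0567), and its pair differences ran from -0.58 in HCT116 with vitamin D3 to 0.004 in Hke3 without it.

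In the origin recognition complex, which marks origins, all 6 fitted differences were below 0 and 2 of 6 subunits passed. That is fewer than in the helicase, and the difference between groups was not tested. ORC6 fell by 0.43 ± 0.06 (adjusted p = 0.0135). Its levels of 10.57, 10.54, 10.10 and 9.98 in HCT116 and 10.22, 10.20, 9.89 and 9.80 in Hke3 were lower in coculture in each line, with no overlap over the 8 arrays. ORC5, at -0.21 ± 0.05 (adjusted p = 0.0436), was the other. ORC1, ORC2 and ORC3 had fitted differences from -0.20 to -0.27 without passing, and ORC4 was nearest 0 of all members (-0.02 ± 0.08, adjusted p = 0.897), with 2 pairs on each side of 0. The ORC6, CDT1 and RFC1 probe sets are of a design that can cross-hybridise.

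All 3 licensing regulators fell. The licensing inhibitor GMNN fell by 0.46 ± 0.08 (adjusted p = 0.0188), from 11.56 and 11.53 to 11.06 and 10.84 in HCT116 and from 11.14 and 11.20 to 10.87 and 10.84 in Hke3. CDT1, the MCM loader that GMNN binds, fell by 0.41 ± 0.06 (adjusted p = 0.0144), reading 10.94, 10.86, 10.42 and 10.38 in HCT116 and 10.49, 10.57, 10.22 and 10.20 in Hke3. Both genes were lower in coculture in all 4 pairs, and in both the coculture arrays lay below all others. CDC6, the loading ATPase, had the smallest fall of the 3 (-0.27 ± 0.06, adjusted p = 0.0332), and its 2 lines did not overlap: cocultured HCT116 (10.08 and 9.97) stayed above untreated Hke3 (9.89).

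Helicase activation genes fell in 4 of 6 cases. GINS2, a GINS subunit, fell by 0.52 ± 0.08 or 1.44-fold (adjusted p = 0.0151), with 11.28, 11.24, 10.65 and 10.51 in HCT116 and 11.19, 11.23, 10.95 and 10.73 in Hke3. Coculture arrays were all lower, most so in HCT116. GINS3, at -0.41 ± 0.06 (adjusted p = 0.0135), read 9.18, 9.12, 8.72 and 8.63 in HCT116 and 8.68, 8.62, 8.26 and 8.33 in Hke3, lower in coculture in each line. CDC45, the helicase cofactor, fell by 0.39 ± 0.05 (adjusted p = 0.0136) with 9.42, 9.46, 9.08 and 8.98 in HCT116 and 9.22, 9.22, 8.89 and 8.83 in Hke3. Its 4 pair differences were close together, from -0.33 to -0.49. MCM10 also fell (-0.38 ± 0.07, adjusted p = 0.0237). GINS1 and GINS4 did not pass, and GINS4 had the smallest difference of the group (-0.23 ± 0.08, adjusted p = 0.0952).

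The clamp PCNA fell by 0.41 ± 0.06 (adjusted p = 0.0135), and among the 5 clamp loader subunits RFC3 and RFC5 fell with it. PCNA read 13.24, 13.34, 12.85 and 12.80 in HCT116 and 13.11, 13.10, 12.70 and 12.79 in Hke3, and the coculture arrays did not overlap with the others. RFC1, the large loader subunit, was at -0.05 ± 0.06 (adjusted p = 0.68), below 0 in both HCT116 pairs and above 0 in both Hke3 pairs. RFC2 and RFC4 were at -0.19 each without passing.

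Of the 9 polymerase and primase genes, 5 fell: POLE2, POLA2, PRIM2, POLD1 and POLD3. POLE2, a polymerase epsilon subunit, fell most, by 0.44 ± 0.07 (adjusted p = 0.0175), with 10.38, 10.39, 9.88 and 9.73 in HCT116 and 9.91, 9.82, 9.57 and 9.56 in Hke3. Its pair differences were -0.50 and -0.67 in HCT116 against -0.34 and -0.26 in Hke3. The catalytic subunits POLA1 and POLE did not pass, at -0.23 ± 0.06 (adjusted p = 0.0558) and -0.22 ± 0.06 (adjusted p = 0.0626). POLD2 had the smallest difference (-0.15 ± 0.06, adjusted p = 0.148).

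All 5 genes of single-strand binding and Okazaki fragment processing fell. FEN1, the flap nuclease that trims Okazaki fragments, fell by 0.44 ± 0.08 (adjusted p = 0.0214), with 12.15, 12.02, 11.54 and 11.41 in HCT116 and 11.98, 11.97, 11.69 and 11.71 in Hke3. Both HCT116 pairs differed by -0.61 and the Hke3 pairs by -0.29 and -0.26. LIG1, the ligase that seals the fragments, fell by 0.35 ± 0.06, and the replication protein A subunits RPA1, RPA2 and RPA3 fell by 0.24 to 0.31, RPA1 least (-0.24 ± 0.06, adjusted p = 0.0418).

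All 4 deoxynucleotide supply genes were below 0 in all 4 pairs, and 2 of them passed. RRM1, the large subunit of ribonucleotide reductase, fell by 0.30 ± 0.06 (adjusted p = 0.0268), and TYMS, the thymidylate synthase, by 0.29 ± 0.06 (adjusted p = 0.0237). RRM2, the small subunit, was at -0.15 ± 0.05 (adjusted p = 0.124), with 13.19, 13.22, 13.09 and 13.13 in HCT116 and 13.19, 13.14, 12.98 and 12.94 in Hke3. TK1, the thymidine salvage kinase, was at -0.22 ± 0.09 (adjusted p = 0.16), with pair differences of -0.37 and -0.46 in HCT116 against -0.03 and -0.004 in Hke3.

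The chromatin genes held the largest fall of all members. HELLS, a chromatin remodeller needed for DNA methylation, fell by 0.62 ± 0.09 or 1.53-fold (adjusted p = 0.0148). Its levels were 10.90, 10.84, 9.98 and 10.25 in HCT116 and 10.93, 10.78, 10.25 and 10.51 in Hke3. In both lines the coculture array without vitamin D3 was the lowest. UHRF1, which brings the maintenance methyltransferase to newly copied DNA, fell by 0.46 ± 0.06 (adjusted p = 0.0135), with 11.95, 12.05, 11.35 and 11.62 in HCT116 and 12.15, 12.14, 11.70 and 11.76 in Hke3. Every coculture array lay below every other array for both genes. DNMT1, the maintenance methyltransferase itself, did not pass (-0.17 ± 0.05, adjusted p = 0.0848). The checkpoint mediator CLSPN, its fork partner TIPIN and the histone mRNA binding protein SLBP all fell, from -0.33 ± 0.05 for CLSPN (adjusted p = 0.0165) to -0.23 ± 0.06 for SLBP (adjusted p = 0.0485).

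**Figure D3:**
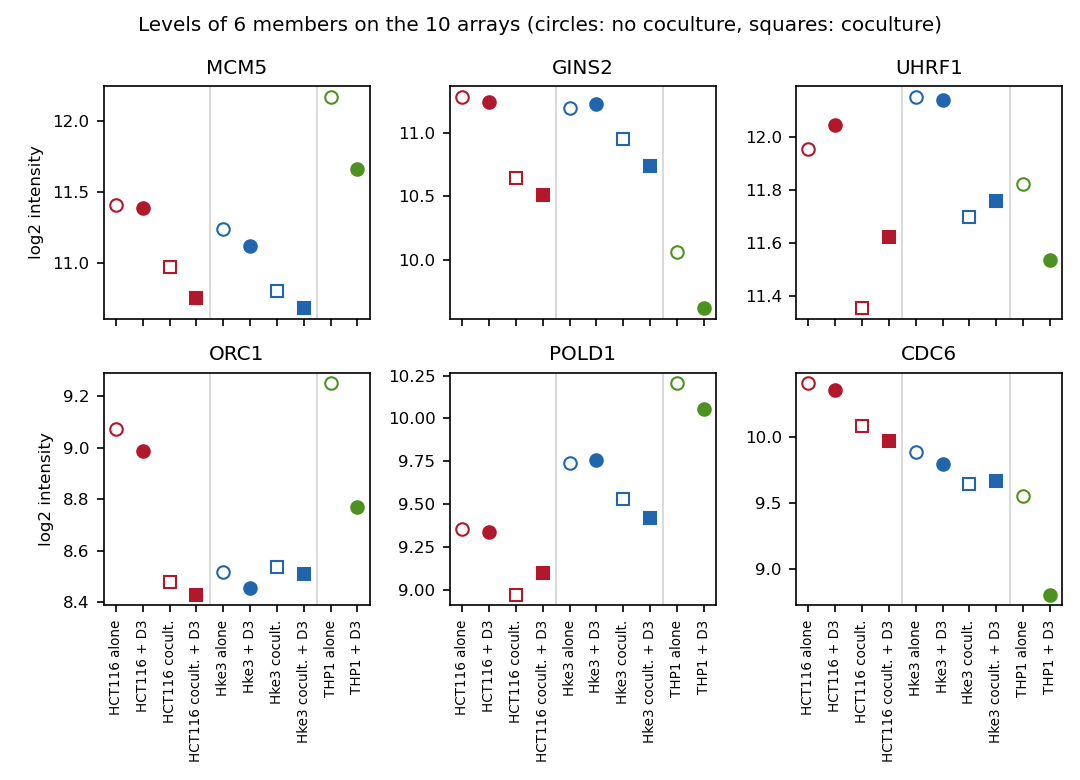
Log2 intensity (vertical, each panel on its own scale) of MCM5, GINS2, UHRF1, ORC1, POLD1 and CDC6 on the 10 arrays, coloured by line, with circles for cultures without and squares with coculture, filled for vitamin D3. Squares lie below circles in both colon lines for all but ORC1, which in Hke3 stays at 8.46 to 8.54, and CDC6 drops from 9.56 to 8.80 in THP1 with vitamin D3.

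The members' other probe sets ran the same way as those chosen. Of 46 further probe sets of members, 40 were above the threshold, and 39 of these had a coculture difference below 0, with a median of -0.24. The exception was a second RFC3 probe set, at 0.20. The profile of the members over the 8 colon arrays was matched most closely by KIFBP (r = 0.992), the mitotic kinase AURKA (0.992), the thymidylate kinase DTYMK (0.991), the kinetochore gene SKA3 (0.989) and the nuclear pore gene NUP62 (0.988). These correlations are over 8 arrays that share the coculture contrast and are given as a description.

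Genes that work beside the members moved with them in part. Of 11 origin firing partners, 6 fell and 0 rose, with the smallest p for MTBP (-0.38 ± 0.06) and CDC7, the kinase that phosphorylates MCM2-7 (-0.36 ± 0.06). TOPBP1 (-0.31 ± 0.06), MCM8 (-0.34 ± 0.06) and WDHD1, which fell furthest of the 6 (-0.40 ± 0.08), were also among them, and the list's median was -0.31. Among 15 fork and chromatin assembly partners, 8 fell, including DSCC1, a subunit of an alternative clamp loader (-0.38 ± 0.05), the histone chaperone ASF1B (-0.38 ± 0.06) and POLE3 (-0.39 ± 0.07). POLD4, the smallest polymerase delta subunit, rose: it was the only gene of these 3 lists and the members to pass upward, at 0.56 ± 0.08 (adjusted p = 0.0144). POLD4 read 8.57, 8.85, 9.03 and 9.22 in HCT116 and 8.43, 8.62, 9.25 and 9.18 in Hke3, so all coculture arrays lay above the others. Of 13 nucleotide synthesis genes tested, 4 fell and 9 did not pass: CTPS1, the CTP synthase (-0.53 ± 0.06), DTYMK (-0.41 ± 0.05), DCK (-0.37 ± 0.07) and DUT (-0.21 ± 0.05), with a list median of -0.15.

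Cell cycle genes outside DNA synthesis also fell. In the E2F and S phase entry list 5 of 11 fell: E2F2 (-0.44 ± 0.06), the phosphatase CDC25A (-0.45 ± 0.07), CCNA2 (-0.36 ± 0.07), CCNE1 (-0.26 ± 0.05) and CCNE2 (-0.33 ± 0.07). E2F1 was at -0.18 ± 0.06 (adjusted p = 0.116). In the mitosis list 14 of 20 fell and 0 rose, with the smallest p for FOXM1 (-0.53 ± 0.06), NCAPH (-0.40 ± 0.05), KIF11 (-0.43 ± 0.06) and CCNB1 (-0.33 ± 0.05). The mitotic kinase PLK1 fell furthest after FOXM1 (-0.48 ± 0.10). MKI67, the proliferation marker, did not pass (-0.15 ± 0.10, adjusted p = 0.394). WDHD1, PLK1, CCNE2, E2F1 and MKI67 were picked out after their values were seen. The medians were -0.27 for the E2F list and -0.27 for mitosis, close to the -0.30 of the members. Macrophage RNA on the coculture arrays was checked beside these results: 0 of 4 macrophage markers tested passed with limma, 1 had an unadjusted p under 0.05 (SRGN, 0.69 ± 0.26), and SRGN reached 6.28 in cocultured Hke3 with vitamin D3 against 13.90 in THP1 alone. The other 8 of the 12 listed, ITGB2, PTPRC, CD14, TYROBP, FCER1G, LYZ, CD163 and SPI1, stayed at or below the detection threshold on all 8 colon arrays. Of 7 epithelial markers tested 1 rose, ELF3 (0.53 ± 0.12, adjusted p = 0.038).

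**Figure D4:**
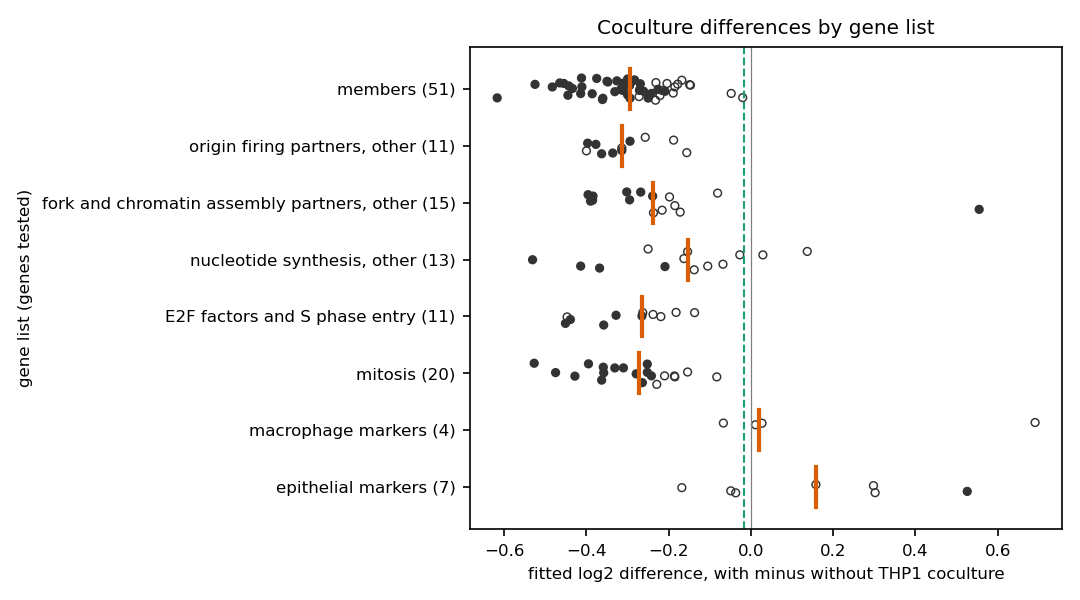
Fitted coculture differences (log2, horizontal) of the members and 7 other gene lists (vertical, with genes tested), filled where the adjusted p is under 0.05, with an orange bar at each list's median and a dashed line at the median of all 13243 genes. The medians of the 5 replication and cell cycle lists beside the members lie between -0.31 and -0.15, POLD4 is the filled point at 0.56, and the macrophage markers' median is 0.02.

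Whether the 2 lines differed in their coculture response was tested by adding a coculture-by-line term (residual df 3). It called 1 of 51 members, ORC1, where 4.21% of all genes tested passed, 1.87% with a higher and 2.34% with a lower signed value in Hke3. On simulated data this test recovered 0% of differences of 0.3 or 0.5 log2 and 48.5% of 1. It therefore cannot show that the lines responded alike in the other members. ORC1 levels were 9.07, 8.99, 8.48 and 8.43 in HCT116 and 8.52, 8.46, 8.54 and 8.51 in Hke3. In HCT116 both coculture arrays lay well below the others, and in Hke3 all 4 arrays lay between 8.46 and 8.54. The coculture difference was -0.58 in HCT116 and 0.04 in Hke3, and the difference between lines was 0.61 ± 0.09 (adjusted p = 0.0149). With single arrays left out that difference stayed between 0.59 and 0.63, with adjusted p from 0.0435 to 0.0725, passing in 1 of 8 cases, without cocultured Hke3. It did not pass with both untreated monocultures left out or against a minimum of 1.2-fold. TK1 (0.40 ± 0.10, adjusted p = 0.0637) and GINS1 (0.37 ± 0.10, adjusted p = 0.0823) came next without passing.

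In 41 of 51 members the difference was further below 0 in HCT116, with medians of -0.36 against -0.25 in Hke3. Of all 13243 genes tested, 7019 had the lower signed difference in HCT116. The median of the coculture-by-line term was 0.128 for the members and 0.016 for all genes. At an unadjusted p under 0.05 the count was 11 of 51 (21.6%), close to the 21.9% of all genes. The members further below 0 in Hke3 included POLA1 (-0.18 ± 0.10), RFC4 (-0.15 ± 0.09) and RRM2 (-0.11 ± 0.09), none of which passed. Among role groups the line difference beside these was largest for RFC1 (0.23 ± 0.09), MCM4 (0.35 ± 0.14), GMNN (0.28 ± 0.12), POLE2 (0.29 ± 0.10), FEN1 (0.34 ± 0.10), HELLS (0.27 ± 0.16) and SLBP (0.14 ± 0.09), and nearest 0 for MCM3, ORC5, CDC6, CDC45, RFC2, POLD3, LIG1, TYMS, DNMT1 and CLSPN, which lay between -0.09 and 0.17. Fitted in each line alone, limma called 26 of 51 members in HCT116 (8.42% of all genes) and 0 in Hke3 (1.73%), where 34 of 51 had an unadjusted p under 0.05. Each of these fits has 4 arrays, and the ACTB 3' minus 5' difference, which was 0.94 and 0.72 without and 0.62 and 0.56 with coculture in Hke3, moved with coculture there. Its part in the result was not tested.

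Hke3 and HCT116 differed in 27 of 51 members, 22 lower and 5 higher in Hke3, where 40.5% of all genes passed, 15.7% lower and 24.8% higher. The median member difference, Hke3 minus HCT116, was -0.14 against 0.008 for all genes. Every Hke3 array lay below every HCT116 array in 6 members (11.8%), against 13.5% of all genes. Every Hke3 array lay above every HCT116 array in 1 member (1.96%), against 21.1% of all genes. Lack of overlap between the lines was thus not more frequent among the members. The ACTB 3' minus 5' difference was higher on all 4 Hke3 arrays, its part was not tested, and with 1 clone the line and its clone cannot be told apart. The count was 3 against a minimum of 1.2-fold (POLD3, SLBP and TIPIN), 14 with both untreated monocultures left out, 16, 17 and 16 without HCT116 alone, with vitamin D3 or in coculture, and 15 without Hke3 alone.

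TIPIN, which with TIMELESS holds the fork together, was the member furthest below 0, at -0.50 ± 0.06 (adjusted p = 0.000371). It read 10.02, 9.99, 9.78 and 9.63 in HCT116 and 9.44, 9.50, 9.23 and 9.27 in Hke3, so that the lines did not overlap. SLBP, which binds the tail of histone mRNAs, was lower by a like amount (-0.48 ± 0.06, adjusted p = 0.000426), with 12.48, 12.48, 12.21 and 12.16 in HCT116 and 11.93, 11.94, 11.74 and 11.81 in Hke3. CLSPN, the third of that group, was at 0.02 ± 0.05 (adjusted p = 0.795).

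Licensing and helicase activation genes were mostly lower in Hke3, as 15.7% of all genes tested were. Differences between role groups were not tested. All 3 licensing regulators passed: CDC6 (-0.46 ± 0.06, adjusted p = 0.00066), CDT1 (-0.28 ± 0.06, adjusted p = 0.00708) and GMNN (-0.24 ± 0.08, adjusted p = 0.0389). Of 6 helicase activation genes 5 passed, GINS4 most (-0.46 ± 0.08, adjusted p = 0.00214), then GINS3 (-0.44 ± 0.06, adjusted p = 0.000651) and MCM10 (-0.32 ± 0.07, adjusted p = 0.00841). GINS4 read 8.46, 8.34, 8.004 and 8.04 in HCT116 against 7.77, 7.83, 7.72 and 7.72 in Hke3, again without overlap. GINS2 did not pass, at 0.10 ± 0.08 (adjusted p = 0.33). In ORC, the lower subunits were ORC6 (-0.27 ± 0.06, adjusted p = 0.00657), ORC5 and ORC3, and ORC2 was nearest 0 at 0.13 ± 0.08.

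The polymerases split by subunit. Polymerase alpha was higher in Hke3 in both its subunits, POLA2 (0.43 ± 0.06, adjusted p = 0.00072) and POLA1 (0.22 ± 0.06, adjusted p = 0.0208), while the primase PRIM1 was lower (-0.31 ± 0.06, adjusted p = 0.00362). In polymerase delta the catalytic POLD1 was higher (0.42 ± 0.06, adjusted p = 0.000864) and the accessory POLD3 lower (-0.47 ± 0.05, adjusted p = 0.000332). POLD1 read 9.36, 9.34, 8.97 and 9.10 in HCT116 and 9.74, 9.76, 9.53 and 9.42 in Hke3, with all Hke3 arrays above all HCT116 arrays. POLD3 ran the other way, with 8.80, 8.82, 8.57 and 8.46 against 8.41, 8.28, 8.09 and 7.99. POLE2 was lower (-0.38 ± 0.07, adjusted p = 0.00428), and the catalytic POLE was nearest 0 at -0.02 ± 0.06.

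Among MCM2-7, MCM3 was higher in Hke3 (0.21 ± 0.06, adjusted p = 0.0283), MCM2, MCM5 and MCM6 were lower, and MCM4 was nearest 0 at 0.03 ± 0.09. UHRF1 was the fifth member higher in Hke3 (0.19 ± 0.06, adjusted p = 0.0384), and DNMT1 of the same group was at 0.02 ± 0.05. Of the 6 clamp and loader genes 1 passed, RFC2 (-0.17 ± 0.05, adjusted p = 0.0271), and RFC1 was nearest 0 at -0.06 ± 0.06. RPA2 (-0.26 ± 0.06, adjusted p = 0.0133) and RRM1 (-0.20 ± 0.06, adjusted p = 0.0294) were the sole calls among single-strand binding and nucleotide genes, with RPA1 at -0.06 ± 0.06 and TK1 at -0.06 ± 0.09 nearest 0.

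For the line difference, other probe sets of a member did not always read like the brightest one. Of the 40 above the threshold, 30 had the sign of the brightest and 10 the opposite sign, none of these 10 in a member that passed. In 5 members a further probe set lay over 1.5-fold away. MCM4 was at 0.03 by its brightest probe set and at -1.14, 0.24 and 0.28 by its next 3, and HELLS was at 0.13 by its brightest and 1.09 by another. RFC3 was at -0.11 against -0.71, RFC5 at -0.14 against -0.38 and -0.74, and RRM1 at -0.20 against -0.79. Gaps under 1.5-fold also left a second probe set nearer 0 in some members that passed. POLD3 was at -0.47 against -0.02, CDT1 at -0.28 against -0.01 and GINS4 at -0.46 against -0.11. Others that passed kept their value, such as CDC6 (-0.46 against -0.53) and GINS3 (-0.44 against -0.50). The line values of the 5 members, and of POLD3, CDT1 and GINS4, therefore depend on the probe set.

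Vitamin D3 gave no call among the members in the colon lines. The limma model called 0 of 51 and 0 of all 13243 genes, and at an unadjusted p under 0.05 it had 1 member, MCM2, against 2.83% of all genes. MCM2, at -0.13 ± 0.05, was below 0 in all 4 pairs, with 12.23, 12.15, 11.86 and 11.70 in HCT116 and 12.04, 11.90, 11.73 and 11.59 in Hke3. Fitted differences of the members lay between -0.13 (MCM2) and 0.10 (UHRF1), with a median of -0.042 against -0.007 for all genes. The fitted difference of CYP24A1 itself was 0.14 ± 0.47. Its pair differences were 1.444 in HCT116 and 1.452 in Hke3 alone, and -0.98 and -1.355 in their cocultures. A model that misses CYP24A1 cannot show that vitamin D3 had no effect. Since CYP24A1 went against the vitamin D3 labels in coculture, the pairs are given apart. The member medians were -0.03 in HCT116 and -0.02 in Hke3 alone, and -0.06 and -0.02 in their cocultures. By role, the members furthest from and nearest to 0 were MCM2 and MCM6 (0.02 ± 0.06), ORC6 (-0.07 ± 0.06) and ORC4 (-0.02 ± 0.08), CDC6 (-0.06 ± 0.06) and CDT1 (-0.01 ± 0.06), GINS2 (-0.09 ± 0.08) and GINS4 (-0.01 ± 0.08). In the fork groups they were RFC3 (-0.05 ± 0.06) and RFC1 (0.02 ± 0.06), POLA2 (-0.08 ± 0.06) and POLD1 (0.004 ± 0.06), LIG1 (-0.13 ± 0.06) and RPA2 (0.02 ± 0.06). In the last groups they were RRM1 (-0.07 ± 0.06) and RRM2 (-0.005 ± 0.05), UHRF1 (0.10 ± 0.06) and DNMT1 (-0.04 ± 0.05), CLSPN (-0.08 ± 0.05) and SLBP (0.01 ± 0.06). A coculture model without the vitamin D3 term, which does not use these labels, called 39 members, where 11% of all genes passed. Dropping the term cannot move the fitted coculture differences in this balanced design (median -0.295 with and without it). The values of the single coculture pairs do rest on the labels.

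In THP1, replication genes were lower on the array with vitamin D3 than on the array without it. The pair has 1 array each and so no test. The difference was below 0 in 48 of 51 members, against 51.4% of the 12717 genes measured, with a median of -0.29 against -0.008. CDC6, the loading ATPase, was the only member past 1.5-fold, where 6.59% of all genes were past it, 2.23% downward and 4.36% upward. CDC6 read 9.56 alone and 8.80 with vitamin D3, a difference of -0.75 (1.69-fold). MCM2 (12.57 and 12.03), TIPIN (9.69 and 9.16), MCM4 (11.78 and 11.25) and MCM5 (12.17 and 11.66) followed, with differences of -0.54, -0.54, -0.53 and -0.51. All 6 MCM2-7 subunits were lower, by 0.21 to 0.54, with a median of -0.45. At the other end PRIM2 was 0.08 higher with vitamin D3, RPA2 0.06 and ORC4 0.02, and HELLS (-0.05) and GINS4 (-0.06) were close to 0. The median was -0.19 for the 20 mitosis genes, all lower, and -0.18 for the E2F list. Macrophage markers moved in the same pair: 9 of 12 were higher with vitamin D3, with a median of 0.20, and CD14 (8.29 and 13.77) and LYZ (9.45 and 11.23) were past 1.5-fold. Their part in the members' values was not tested.

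**Figure D5:**
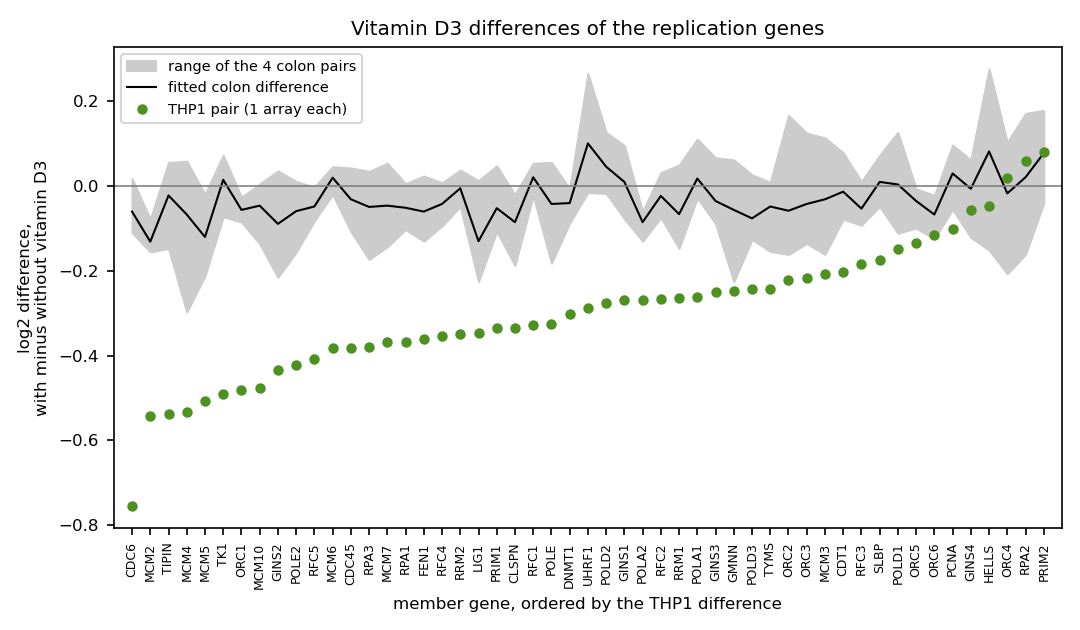
Vitamin D3 differences (log2, vertical) of the 51 members (horizontal, ordered by the THP1 value): green points for the THP1 pair, the fitted colon difference as a line and the range of the 4 colon pairs in grey. THP1 points run from -0.75 for CDC6 to 0.08 for PRIM2, and the colon line stays between -0.13 and 0.10.

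The vitamin D3 difference in THP1 was set against that in the colon lines in a model over all 10 arrays (residual df 4), a test added after the values were seen. With 1 THP1 array on each side, the spread of THP1 was not measured, and the p-values assume that it equals that of the colon arrays. Under that assumption CDC6 was the 1 member that passed, with a difference between cell types of -0.69 ± 0.13 (adjusted p = 0.0256), where 4.09% of all genes passed, 1.29% in this direction and 2.8% in the other. With the cocultures left out, and so without the arrays whose vitamin D3 labels are in doubt, CDC6 (-0.68 ± 0.12, adjusted p = 0.0221), MCM4 (-0.58 ± 0.12, adjusted p = 0.0341) and TIPIN (-0.55 ± 0.12, adjusted p = 0.0459) passed. That fit has residual df 1.

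THP1 and the colon lines differed in 34 of 51 members (66.7%), 25 lower and 9 higher in THP1 (limma over all 10 arrays, residual df 5). That share is close to the 68.3% of all genes that passed, 40.2% lower and 28.1% higher, so the count does not set the members apart. Cyclic loess scaling gave 20 lower and 14 higher, THP1 alone without its vitamin D3 array 19 lower and 13 higher, and the vitamin D3 array without THP1 alone 30 lower and 6 higher. Both THP1 arrays lay below the range of the 8 colon arrays for 15 members (29.4%, against 36% of all genes) and above it for 8 (15.7%, against 26%). The other 28 lay within or across it.

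The members lowest in THP1 included the ribonucleotide reductase subunit RRM2, the clamp loader subunit RFC5, GMNN, GINS2 and HELLS. RRM2 read 11.90 and 11.55 in THP1 against 12.94 to 13.22 in the colon lines, a difference of -1.46 ± 0.09 (adjusted p = 6.24e-07). RFC5 read 9.92 and 9.52 against 10.77 to 11.28 (-1.45 ± 0.09, adjusted p = 7.35e-07). GMNN was at 10.04 and 9.80 against 10.84 to 11.56 (-1.44 ± 0.10, adjusted p = 1.33e-06). These 3 were 2.71-fold to 2.75-fold lower. GINS2 differed by -1.39 ± 0.12 and HELLS by -1.38 ± 0.12, CDT1 by -1.14 ± 0.08 and RPA1 by -1.09 ± 0.09. PCNA (-0.99 ± 0.07), CDC6 (-0.94 ± 0.15) and ORC2 (-0.91 ± 0.10) lay below the colon range as well. All 3 licensing regulators were lower, so GMNN and its partner CDT1 were low together.

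The members highest in THP1 were subunits of the polymerases, GINS and MCM2-7. POLD3 read 9.85 and 9.60 against 7.99 to 8.82 in the colon lines, a difference of 1.15 ± 0.07 (adjusted p = 6.15e-07). POLA2 read 9.93 and 9.66 against 8.08 to 8.96 (1.08 ± 0.08, adjusted p = 1.57e-06). Both THP1 arrays lay above every colon array for these, as for GINS4 (0.81 ± 0.09), MCM3 (0.64 ± 0.08), MCM5 (0.63 ± 0.10), POLD1 (0.58 ± 0.08), MCM4 (0.52 ± 0.14) and POLD2 (0.28 ± 0.09). So in the polymerases 4 of 9 were higher and 4 lower, POLE2 lowest (-0.88 ± 0.11). Members near 0 in their groups were MCM7 (-0.07 ± 0.10), ORC3 (0.24 ± 0.08), GINS1 (-0.06 ± 0.11), RFC3 (0.06 ± 0.07), PRIM1 (-0.07 ± 0.09), RPA3 (-0.03 ± 0.10), RRM1 (0.01 ± 0.08), DNMT1 (0.14 ± 0.08) and SLBP (-0.17 ± 0.08), of which ORC3 alone passed (adjusted p = 0.0233). The largest of the checkpoint group was CLSPN (-0.32 ± 0.08, adjusted p = 0.00645).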

How the data were processed

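RNA of 10 cultures was measured on Affymetrix arrays, 1 per condition, with an input of 5 µg of cRNA, per the labels' protocols. The deposited values are log2 intensities of probe sets, summarised by RMA with the R package affy, per the submitters' processing notes. Versions, and whether all arrays were normalised together, are not given in the sources used here. Array medians were 6.15 to 6.21. There are no read counts, and precision is limited by the number of arrays. Samples were grouped by their titles.

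Of 54675 probe sets, the 41097 that GEO's platform annotation maps to 1 symbol were used; 1801 had several symbols and 11777 none. Each of 19775 genes took its brightest probe set by mean. Genes with any value over 6.176 log2, the median over all arrays, were kept: 13243 on the 8 colon arrays, 13879 on all 10 and 12717 on the THP1 pair. limma 3.58.1 (R 4.3.3) fitted additive terms for coculture, line and vitamin D3, two-sided, with Benjamini-Hochberg adjustment over all genes kept and a threshold of 0.05. THP1 against the mean of both colon lines used all 10 arrays. The THP1 pair has no test and was read against 1.5-fold.

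The members and the other lists (origin firing partners, fork and chromatin assembly partners, nucleotide synthesis, E2F and S phase entry, mitosis, macrophage markers, epithelial markers) were chosen with earlier results of these data known. All members could be named. Full values went to at most 12 called members per comparison with the largest differences and 1 sign in all 4 pairs (THP1 against colon: outside the colon range) and to the extremes of each role group. Named beside them are up to 4 genes of each other list with the smallest coculture p, the ACTB, GAPDH and CYP24A1 checks, the 5 largest THP1 pair differences in each direction, and the 5 genes most like the members' mean profile.

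On simulated data with 200 changed genes among 13243, the coculture test recovered 25.4% of differences of 0.3 log2, 73.1% of 0.5 and 98.5% of 1, with 5 false calls in 136; the coculture-by-line test recovered 0%, 0% and 48.5%. Alternatives were other filters, probe set rules, scalings and eBayes settings, a 1.2-fold minimum, a block of the other factors, single lines, monocultures only, and arrays left out. Promoter windows came from RefSeq (GRCh38.p14). Plots used matplotlib 3.10.9.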

Additional observations from a re-analysis of the deposited data

Results flagged for a closer look

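ORC1, the large ORC subunit, differed between lines in its coculture response: the coculture difference in Hke3 minus that in HCT116 was 0.611 log2 by limma's interaction term (adjusted p = 0.0149), with -0.58 in HCT116 and 0.04 in Hke3. With single arrays left out ORC1's adjusted p was 0.0435 to 0.0725, under 0.05 only without cocultured Hke3. For CDC6, the vitamin D3 difference in THP1 minus that in the colon lines was -0.694 log2 (limma, adjusted p = 0.0256), with -0.75 in THP1 and -0.06 in the colon lines. THP1 has 1 array with and 1 without vitamin D3, so its own spread was not measured: this p-value takes its error from the colon arrays, the cocultures with doubted vitamin D3 labels included, and the test was added after the values were seen.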

How the results depend on the processing

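With 1 array per condition there are no replicate numbers to pair, and matched arrays were blocked instead. No member called in the coculture comparison changed sign in any setting run, and the members' median stayed between -0.36 and -0.25. The 34 coculture calls became 0 with a minimum of 1.2-fold (limma's treat, 12 at an unadjusted p under 0.05, and 0 genes in all), 15 with the 4 pairs as a fixed block of the other factors (259 genes in all), 0 on the Hke3 arrays only and 0 without both untreated monocultures, a setting added after the data were seen; leaving out single arrays gave 1 to 24. The other settings gave 26 to 41. The 27 line calls became 3 with a minimum of 1.2-fold (POLD3, SLBP and TIPIN), 14 without both untreated monocultures and 15 to 24 without single arrays. The coculture-by-line call, ORC1, stayed alone or was joined by TK1, GINS1 and FEN1: 3 calls with a filter at the 75th percentile (8.145), 4 with trend and robust eBayes and 2 without the vitamin D3 term. It was lost (0 calls) with a minimum of 1.2-fold and without both untreated monocultures, and single arrays left out gave 0 to 1. Vitamin D3 gave 0 calls in every setting, with 0 to 3 members at an unadjusted p under 0.05, and every setting used the vitamin D3 labels as given. THP1 against colon gave 31 to 36 calls. The vitamin D3 test of THP1 against colon gave 3 calls on monocultures only. Fewer arrays leave fewer residual degrees of freedom; other causes of these changes were not tested.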
